A study of Mus musculus with 6 samples.

Results

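The distal end of mouse chromosome 2 holds a cluster of zinc finger genes that was examined after knock-down of Uhrf2 in AML12, a mouse hepatocyte line that does not form tumours. Its members are the 46 genes of the deposited table, of 35709 listed, that lie fully within chromosome 2 from 175010241 to 178078476 (GRCm38, GENCODE M21), a stretch of 3.07 Mb. Of these, 45 are annotated as protein-coding and 1, Gm11008, as a long intergenic noncoding RNA. The 35 members with a mean of at least 1 FPKM (a level scaled to transcript length and library size) over the 6 libraries are described one by one, and the other 11 by their low values. All 6 libraries are of AML12 cells treated with small interfering RNA by Lipofectamine RNAiMAX for 72 h. In 3 of them (siCtrl, labelled WT) the RNA was scrambled, and in 3 (siUhrf2, labelled as the knock-down) it was directed against Uhrf2. The comparison asks which transcripts differ after Uhrf2 knock-down. Whether replicates are separate cultures is not stated, and the p-values therefore cover no more than the spread among these libraries, which may be technical. The interval was chosen by the measured normalized counts of this same siUhrf2 against siCtrl comparison, so the differences within it are a description and no independent evidence. In such bulk samples, fewer cells that express a gene and less RNA per cell cannot be told apart.

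KRAB zinc finger proteins are a large family of DNA-binding repressors in mammals. Each carries a KRAB domain and an array of C2H2 zinc fingers that reads a DNA sequence. In most members the KRAB domain binds the corepressor TRIM28, which recruits the H3K9 methyltransferase SETDB1 and silences the bound site, often a transposable element. Their genes multiply by tandem duplication, and neighbouring copies remain very similar. UHRF2 is a ubiquitin ligase whose other domains recognise modified DNA and methylated histone H3. Individual roles are not given below for most members, because none is known with certainty from their names.

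The knock-down was present in all 3 siUhrf2 libraries, and for Uhrf2 the normalized count was 8899, 9058 and 9018 in siCtrl and 2942, 2805 and 2777 in siUhrf2, so that 31.6% remained (exact two-sided permutation p = 0.10, the smallest that 3 against 3 libraries allow). Library depth lay between 44.6 and 53.1 M estimated reads. Of 11 hepatocyte markers 8 reached a mean of 1 FPKM, while Alb, Apoa1 and Apoa2 were below it. The summed hepatocyte markers lay between 2608 and 2822 FPKM in siCtrl and between 3037 and 3222 in siUhrf2. Of the markers of other cell types, 3 of 4 for cholangiocytes reached 1 FPKM (Krt19, Krt7 and Sox9, with Epcam at 0), and their sum lay between 302 and 336 FPKM in siCtrl and between 552 and 602 in siUhrf2. The sum of 5 macrophage and leukocyte markers lay between 7.46 and 9.18 FPKM in siCtrl and between 2.92 and 3.79 in siUhrf2, with Adgre1 at 0 and Csf1r and Cd68 above 1. Of 4 endothelial markers and 5 stellate and fibroblast markers, 0 reached 1 FPKM, with sums of at most 0.125 and 1.37 FPKM in any library. The part of these marker differences in the results below was not tested.

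The sequences of the cluster show how alike its members are, which bears on every value that follows. The 24-base string found most often in the coding sequences of the members (GENCODE M21) occurred 271 times in 38 of 45 coding members, 263 times in the reading frame. It is shown as the commonest repeat of these coding sequences. It was absent from 7 coding members, among them Gm14440, Gm14288, Gm14327 and Zfp972, and no reads were examined. Its capitals mark the bases that encode the conserved linker between neighbouring zinc fingers:
finger linker repeat: aacacatACAGGAGAGAAACCCta
Counted by an amino acid pattern of the C2H2 finger in the translated longest coding sequence of each gene, 28 of the 35 members described held between 5 and 25 fingers, with the most in Gm14295. An amino acid pattern of the KRAB domain, sought in every annotated coding transcript of each gene, was found in 18 of the 35.

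The promoters were alike as well. RefSeq (GRCm38.p6) gave promoter windows, from 250 bases before to 50 after the annotated start, for 27 of the 35 members, and 25 of these lay within 300 bases of the GENCODE gene start. All 25 held 1 identical run of 30 bases, the longest they share, which began between 64 and 153 bases before the start. Of all 32851 windows, 33 (0.1%) held this run on either strand, and 0 of the 33 lay outside the interval. The run was chosen after the sequences were compared, so these counts describe the duplication of the windows and test nothing. The 4 windows below are shown so that 3 members that rose at least 2-fold, at different places in the interval, can be read beside 1 that did not pass, and the capitals mark the shared run. Gm4631 (minus strand, chr2:175338172-175338471), Gm14403 (plus strand, chr2:177497976-177498275) and Zfp971 (plus strand, chr2:178023034-178023333) rose. Zfp931 (minus strand, chr2:178078376-178078675) did not pass the test:
Gm4631: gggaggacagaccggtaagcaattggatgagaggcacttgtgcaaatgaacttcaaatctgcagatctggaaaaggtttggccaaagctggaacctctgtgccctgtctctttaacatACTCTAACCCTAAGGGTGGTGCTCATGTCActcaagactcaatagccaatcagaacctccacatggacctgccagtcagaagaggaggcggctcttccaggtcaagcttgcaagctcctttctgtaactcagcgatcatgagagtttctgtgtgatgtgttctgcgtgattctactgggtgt
Gm14403: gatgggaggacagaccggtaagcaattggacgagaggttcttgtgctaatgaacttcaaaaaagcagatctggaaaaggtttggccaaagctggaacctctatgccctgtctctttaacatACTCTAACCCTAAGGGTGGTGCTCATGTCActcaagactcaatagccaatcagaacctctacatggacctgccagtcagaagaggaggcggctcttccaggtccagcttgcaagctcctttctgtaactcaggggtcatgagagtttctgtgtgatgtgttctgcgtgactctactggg
Zfp971: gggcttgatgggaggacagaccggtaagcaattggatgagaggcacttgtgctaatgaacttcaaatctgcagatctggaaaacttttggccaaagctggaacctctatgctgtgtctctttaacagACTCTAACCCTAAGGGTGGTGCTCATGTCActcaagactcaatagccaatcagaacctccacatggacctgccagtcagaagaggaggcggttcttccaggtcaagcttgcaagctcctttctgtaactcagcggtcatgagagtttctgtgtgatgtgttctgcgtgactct
Zfp931: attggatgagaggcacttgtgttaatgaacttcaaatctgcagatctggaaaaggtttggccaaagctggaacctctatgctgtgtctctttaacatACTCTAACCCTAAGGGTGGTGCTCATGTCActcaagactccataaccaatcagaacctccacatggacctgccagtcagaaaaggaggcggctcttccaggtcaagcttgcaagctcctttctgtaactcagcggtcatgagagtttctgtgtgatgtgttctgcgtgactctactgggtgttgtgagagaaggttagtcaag
The letters CCAATCAG, which hold the CCAAT box, were present on either strand in 25 of the 25 windows and in 4.10% of all windows. Since the windows are copies of one another, these counts too describe their duplication and test nothing. Over the 300 pairs of members, window identity (1 minus edit distance over length) ranged from 45.7% to 100%, with a median of 77.7%, and part of the lower values comes from starts annotated at different points of the same sequence. Each of the 25 windows held between 1 and 5 CG dinucleotides, with a median of 4. Over all windows the lower quartile was 3 and the median 7, and 43.6% held at most 5, so such counts are common. Of the 25 members with these windows, 18 rose and 7 did not pass, where 29.9% of all tested genes rose, so the run was present in both kinds of member. The window of Gm2004, which lay farther from its gene start, also held the run, and Gm2004 rose.

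The sum of the normalized count over all 46 genes was higher in every siUhrf2 library than in any siCtrl library. It was 17906, 18787 and 19131 in siCtrl and 31550.1, 31812 and 31454 in siUhrf2, that is, 18608 ± 632 against 31605 ± 185 (SD, n = 3). The ratio of the means was 1.70. The groups did not overlap, and the gap between them was far wider than the spread within either. As a share of the library the cluster went from 0.0381% ± 0.0012 to 0.0642% ± 0.0007 (SD, n = 3), so it remained a small part of the transcripts. Gm4631 alone gave 39.3% of the difference in the sum, and the top 5 contributors together gave 62.2%. Without Gm4631 the sums were 15721 ± 463 and 23613 ± 160 (SD, n = 3), a log2 ratio of 0.59.

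**Figure D1:**
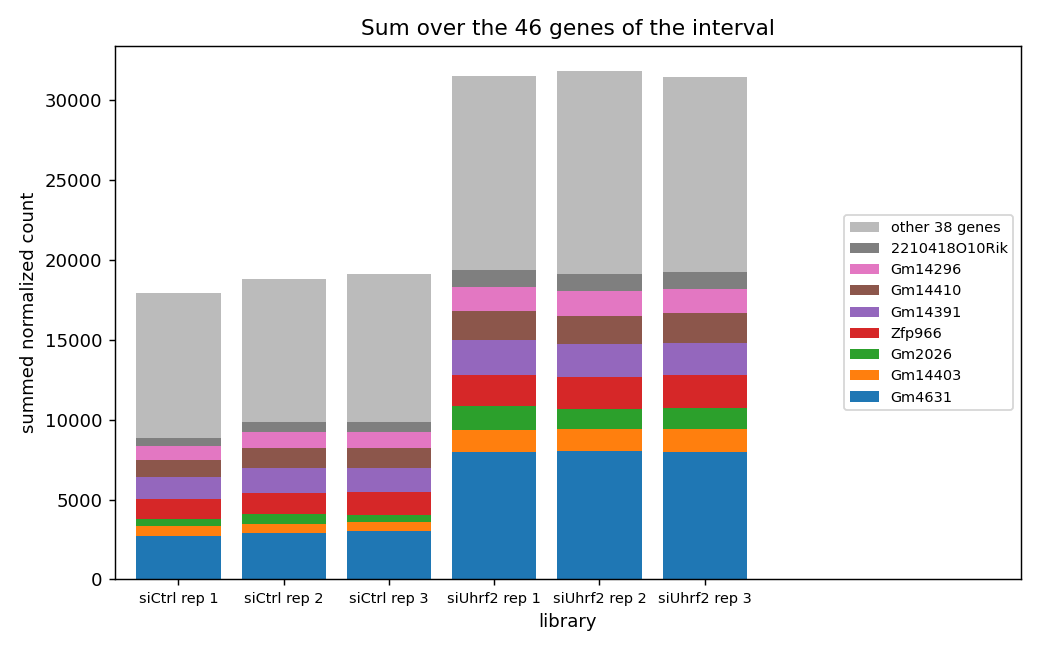
Stacked bars give the summed normalized count of the 46 genes of the interval in each of the 6 libraries, with the 8 genes that contribute most to the difference in colour and the other 38 in grey. The siUhrf2 bars stand between 31454 and 31812 and the siCtrl bars between 17906 and 19131, and the Gm4631 segment at the base shows the widest step.

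Of the 35 members with a mean of at least 1 FPKM, 26 (74.3%) rose, 0 fell and 9 did not pass the test at an adjusted p under 0.05 (limma on log2(normalized count + 1), fitted on and adjusted over all 11343 genes at that level). Over all 11343 genes, 29.9% were called higher and 31.1% lower. The median log2 difference was 0.60 over the 35 members and -0.01 over all genes tested. Of the 26 that rose, the fold ranged from 1.28 to 3.07 with a median of 1.62, and 8 rose at least 2-fold, where 1.11% of all tested genes (126) did. In 26 members all siUhrf2 values lay above all siCtrl values, in 1 they lay below, and in 8 the groups overlapped. Among all tested genes siUhrf2 lay above without overlap in 32.5% and below in 34.1%. At an unadjusted p under 0.05 limma also called 0 members lower. Among the 22 members with a mean of at least 5 FPKM, 19 rose in a fit of the genes at that level, where 31.7% of all genes rose.

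**Figure D2:**
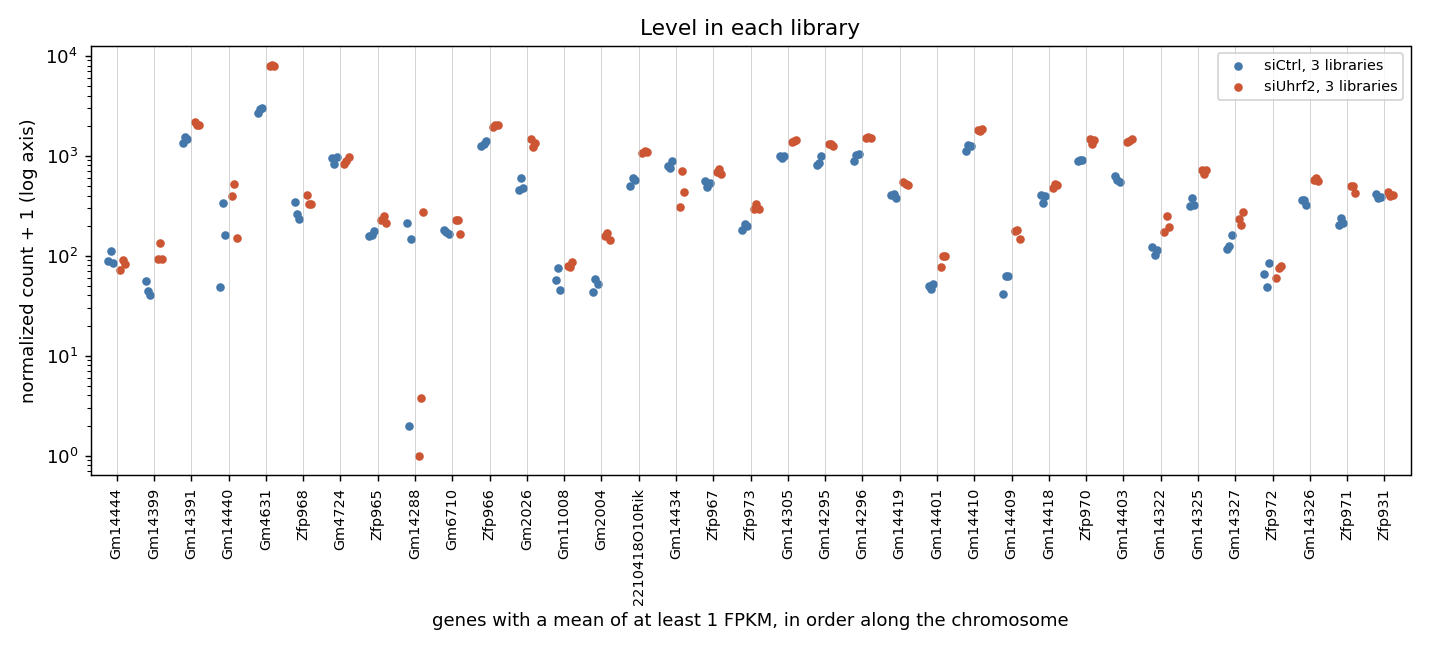
Each point is 1 library's normalized count plus 1 on a log axis for each of the 35 members with a mean of at least 1 FPKM, in order along the chromosome, blue for siCtrl and orange for siUhrf2. In 26 members all 3 orange points lie above all 3 blue ones, and Gm14288 spreads over more than 2 orders of magnitude in both groups.

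Gm4631 had the highest mean level of the cluster, 37.6 FPKM. It had 2703, 2923 and 3036 normalized counts in siCtrl and 8003, 8017 and 7958 in siUhrf2. The siUhrf2 libraries were nearly equal to one another and all above siCtrl. The rise was 2.77-fold (log2 1.47, SE 0.042, limma adjusted p = 1.01e-09). The gene lies on the minus strand from 175321955 to 175338197 and its longest coding sequence holds 13 finger patterns. Gm14403, on the plus strand from 177498215 to 177509763 with 9 finger patterns, had 623, 574 and 542 normalized counts in siCtrl and 1363, 1417 and 1464 in siUhrf2. Its groups were likewise far apart, and it rose 2.44-fold (log2 1.29, SE 0.063, limma adjusted p = 2.44e-08).

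The largest folds belonged to 2 weakly expressed members. Gm14409 had 40.2, 62.1 and 62.3 normalized counts in siCtrl and 177, 178 and 147 in siUhrf2, a 3.07-fold rise (log2 1.62, SE 0.19, limma adjusted p = 1.81e-05). Gm2004 had 42.4, 58.0 and 51.7 against 158, 166 and 144, a 3.06-fold rise (log2 1.61, SE 0.16, limma adjusted p = 5.75e-06). Both lay below 5 FPKM in each group, and neither had overlapping groups. The fold of Gm2004 is uncertain, because all strings of 31 bases in its transcripts are also found in Gm14419, which rose 1.32-fold. Summed, Gm2004, Gm14295 and Gm14419 rose 1.48-fold. Gm2026 went from 458, 593 and 481 to 1482, 1215 and 1328 normalized counts (2.63-fold), which again left a gap between the groups.

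At the far end of the cluster, Zfp971 had 204, 236 and 210.1 normalized counts in siCtrl and 493, 502 and 424 in siUhrf2, a 2.17-fold rise (log2 1.12, SE 0.097, limma adjusted p = 1.87e-06). Gm14325 went from 311, 377 and 320.1 to 726, 650.4 and 719 (2.08-fold). Gm14399, near the other end and with few counts, went from 54.8, 43.7 and 39.3 to 92.5, 134 and 90.9 (2.26-fold). These 8 genes, Gm4631, Gm14403, Gm14409, Gm2004, Gm2026, Zfp971, Gm14325 and Gm14399, are the ones that rose at least 2-fold, and they lie at both ends and in the middle of the interval.

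The other 18 risers changed by less than 2-fold. The gene 2210418O10Rik rose from 500.0, 596 and 574 to 1054, 1104 and 1087 normalized counts (1.95-fold). It has the KRAB pattern and, in its longest coding sequence, 0 finger patterns, although 4 copies of the finger linker repeat were counted for it. All of its strings of 31 bases are also found in Gm14296, and these 2 genes summed rose 1.70-fold. Gm14401, Gm14322 and Gm14327 rose 1.84-fold, 1.81-fold and 1.78-fold, and Gm14326 rose 1.68-fold. The annotated span of Gm14327, introns included, overlaps that of Zfp972 on the opposite strand over 2445 bases. Reads from any transcript sequence in that overlap could be confused if strand was not used, which the sources do not state. Of the strings of 31 bases in Gm14327, 76.3% are also found in Gm14288 and 72.3% in Gm14440, so the level of Gm14327 is uncertain.

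Several of these smaller rises were in well expressed members with narrow spreads. Gm14410, the second most abundant at 34.1 FPKM, had 1104, 1286 and 1254 normalized counts in siCtrl and 1820.3, 1775 and 1839 in siUhrf2 (1.49-fold, log2 0.58, SE 0.058, limma adjusted p = 5.78e-06). Zfp970 went from 893 ± 11.1 to 1404 ± 80.4 normalized counts (SD, n = 3; 1.57-fold). Zfp966 went from 1328 ± 84.1 to 2008 ± 44.3 (1.51-fold). In each of these the groups did not overlap.

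Zfp973 and Gm14305, which overlap over 10758 bases on the same strand, rose 1.56-fold and 1.43-fold. Gm14296 rose 1.56-fold, Gm14295, with 25 finger patterns, 1.46-fold, Gm14391 1.43-fold and Zfp965 1.39-fold. The smallest rises were those of Gm14418, Gm14419, Zfp967 and Zfp968, at 1.33-fold, 1.32-fold, 1.32-fold and 1.28-fold. Zfp968 had 344, 260.0 and 233 normalized counts in siCtrl and 401, 330.2 and 331 in siUhrf2. It is the one riser whose groups overlap, its adjusted p of 0.0486 (limma) was just inside the threshold, and its call was lost without 5 of the 6 libraries in turn (adjusted p = 0.132 and 0.17 without siCtrl replicates 2 and 3, and 0.146, 0.066 and 0.0695 without siUhrf2 replicates 1, 2 and 3).

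The 9 members that did not pass fall into several kinds. Zfp931, which closes the interval from 178067695 to 178078476, had 415, 377 and 385 normalized counts in siCtrl and 438, 393 and 402 in siUhrf2. Its groups overlap, and it differed by 0.07 on the log2 scale (SE 0.078, limma adjusted p = 0.48), although 60.2% of its sequence is found in no other gene. Gm14444, which opens the interval, had 94.1 ± 14.8 against 80.3 ± 9.34 normalized counts, and Zfp972 64.9 ± 17.8 against 70.3 ± 9.76 (SD, n = 3). Gm6710 had 172 ± 7.96 against 206 ± 34.8 (limma adjusted p = 0.13) and passed without siUhrf2 replicate 3 (adjusted p = 0.0174), the library in which it was lowest of its group.

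The noncoding Gm11008 had 56.0, 74.0 and 44.0 normalized counts in siCtrl and 77.5, 76.4 and 84.6 in siUhrf2. Its groups did not overlap, but it missed the threshold (log2 0.48, SE 0.20, limma adjusted p = 0.058) and passed it without siCtrl replicate 2 (adjusted p = 0.0161). Gm14434 was the 1 member whose siUhrf2 libraries all lay below siCtrl, with 788, 753 and 881 against 307, 703 and 431 normalized counts. It too missed the threshold (log2 -0.83, SE 0.33, limma adjusted p = 0.09), with siUhrf2 replicate 2 close to the controls. Without that library it was called lower (log2 -1.15, limma adjusted p = 0.00025), where 27.6% of all genes were. It was also called lower without robust variances (adjusted p = 0.0112), where 31.1% of all genes were. Gm4724 had 922 ± 78.4 against 893 ± 72.8 (SD, n = 3; limma adjusted p = 0.62).

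Among the 11 members under 1 FPKM, Gm11007, Zfp969 and Gm2007 were listed at 0 in all 6 libraries. The other 8 summed, with them, to 240.0 normalized counts on average in siCtrl and 270.1 in siUhrf2. At the threshold of 1 FPKM, Gm14288 at 1.16 FPKM and Gm14444 at 1.62 lay just inside, and Gm14443, Gm14412 and Gm14435 at 0.92, 0.88 and 0.68 FPKM just outside. The mean normalized count of Gm14443 was 128 ± 13.2 in siCtrl against 139 ± 22.7 in siUhrf2, that of Gm14412 51.6 ± 3.31 against 84.6 ± 11.9, and that of Gm14435 23.9 ± 8.46 against 19.8 ± 10.5 (SD, n = 3). Gm14412 was the one of these 3 whose groups did not overlap. In a fit without the filter on low values, 1 member under 1 FPKM, Gm14408, was called lower, where 15.8% of all genes were. Its values were near the floor, at 1.05, 5.53 and 1.26 normalized counts in siCtrl and 0 in every siUhrf2 library.

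Along the chromosome the rises ran over most of the interval. From Zfp967 to Gm14327, 15 neighbouring members at this level rose in an unbroken row. The members lie on both strands, and 15 of 19 on the plus strand and 11 of 16 on the minus strand rose. The genes within 2 Mb of either end give the background of the region: 3 of 16 tested rose, 7 fell and 6 missed the threshold, where 29.9% of all genes rose and 31.1% fell, at a median log2 difference of -0.09. The nearest before the interval at this level were Prelid3b, a mitochondrial lipid transfer protein gene, and Atp5e, an ATP synthase subunit gene, at 0.537 and 0.546 Mb. Prelid3b fell from 3799 to 3306 normalized counts on average (log2 -0.20, SE 0.038, limma adjusted p = 0.000684). Atp5e fell from 3962 to 3701 (log2 -0.10, SE 0.039, limma adjusted p = 0.0471), and its call was lost without 4 of the 6 libraries in turn (adjusted p = 0.152 and 0.163 without siCtrl replicates 2 and 3, and 0.138 and 0.128 without siUhrf2 replicates 2 and 3). The nearest after it were Taf4, a TFIID subunit gene, and 4921531C22Rik, at 1.83 and 1.90 Mb, with log2 differences of 0.06 and -0.17 that did not pass.

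**Figure D3:**
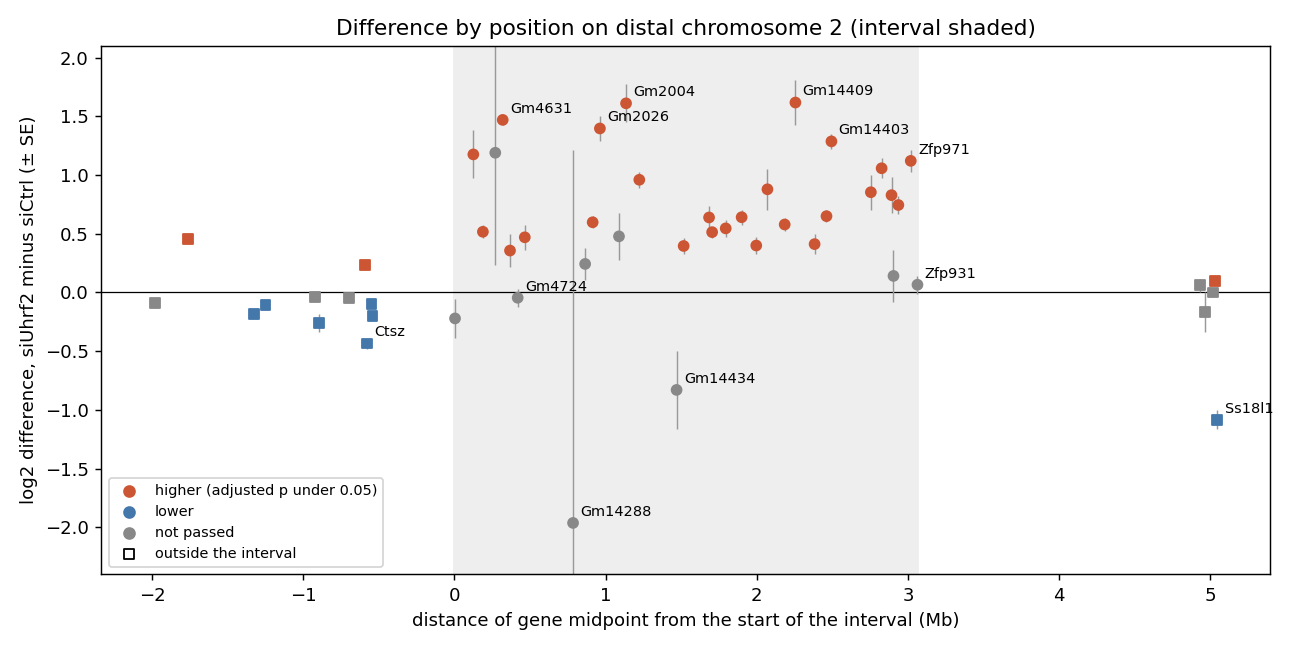
The log2 difference (siUhrf2 minus siCtrl, with SE) of each gene with a mean of at least 1 FPKM is set against the distance of its midpoint from the start of the interval, with the interval shaded, circles for its members and squares for genes within 2 Mb outside it. Inside, 26 of 35 points are marked higher, and outside 3 of 16. The bars of Gm14288 and Gm14440 run past the axis or span most of it.

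Because the members are near copies, the split of reads between them is uncertain, and this was measured on the GENCODE M21 transcripts. Each transcript was cut into strings of 31 bases, and for each member the share of strings found in no other annotated gene was counted. Over the 35 members this share ranged from 0% to 64.0% with a median of 8.43%. It was 0% in 8 members and under 10% in 20. Of those 20, 14 rose and 6 did not pass, and of the 15 members with a share of at least 10%, 12 rose. Over all tested genes 29.9% were called higher. Members that share strings are not separate observations, and whether sharing bears on the calls was not tested. Gm4631, Gm14403, Gm14401 and Gm14391, all risers, had shares of 48.9%, 43.0%, 36.3% and 64.0%. The next highest share after that of Gm14391 was 60.2%, in Zfp931, which did not pass (limma adjusted p = 0.48). Over all 42143 distinct strings of the members, 39.4% were found in several members 4.64% in a gene outside the interval, and 15.9% in any annotated gene that is not a member, inside the interval or outside it. Dividing reads differently among members leaves their sum as it is, while reads shared with other genes, the pseudogenes of the interval included, could change it.

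**Figure D4:**
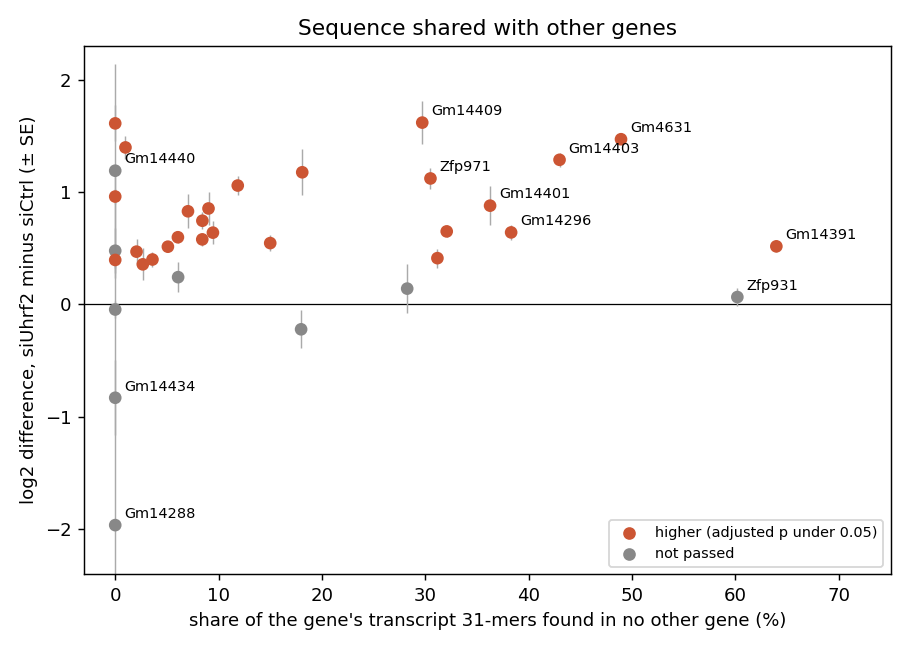
The log2 difference (siUhrf2 minus siCtrl, with SE) of the 35 members is set against the percent of the gene's transcript 31-mers found in no other gene. Risers occur from 0% (Gm2004) to 64.0% (Gm14391), and Zfp931, at 60.2%, lies near 0 on the vertical axis. The bars of Gm14288 and Gm14440 overlie at 0%, and that of Gm14288 runs past the axis.

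Gm14440 and Gm14288 show the limit on single members. All 31-mers of Gm14440 (100%) are found in Gm14288, and 97.5% of those of Gm14288 in Gm14440. Gm14440 had 47.8, 339 and 159.7 normalized counts in siCtrl and 399, 520.2 and 151 in siUhrf2. Gm14288 had 212, 0.97 and 145 in siCtrl, and in siUhrf2 it was close to 0 in replicate 1, at 2.80 in replicate 2 and at 270.5 in replicate 3. In 3 libraries nearly all of the pair's value was given to Gm14440, in 2 more of it to Gm14288, and in siCtrl replicate 3 the split was about even. Their sum was 259.6, 340.2 and 305 in siCtrl and 399, 523 and 421 in siUhrf2, without overlap, where each gene alone overlapped and did not pass (limma adjusted p = 0.34 and 0.63).

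Gm2026, Gm4724 and Gm14434, picked out after their values were seen, have identical promoter windows, and 98.5% of the 31-mers of Gm14434 and 93.0% of those of Gm4724 are found in Gm2026. Gm2026 rose, Gm4724 differed by less than its spread and Gm14434 was lower without passing. The sum of all 3 was 2206, 2178 and 2335 normalized counts in siCtrl and 2618, 2795 and 2732 in siUhrf2, or 2240.0 ± 83.8 against 2715 ± 89.5 (SD, n = 3), a ratio of 1.21. The groups of the sum did not overlap.

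**Figure D5:**
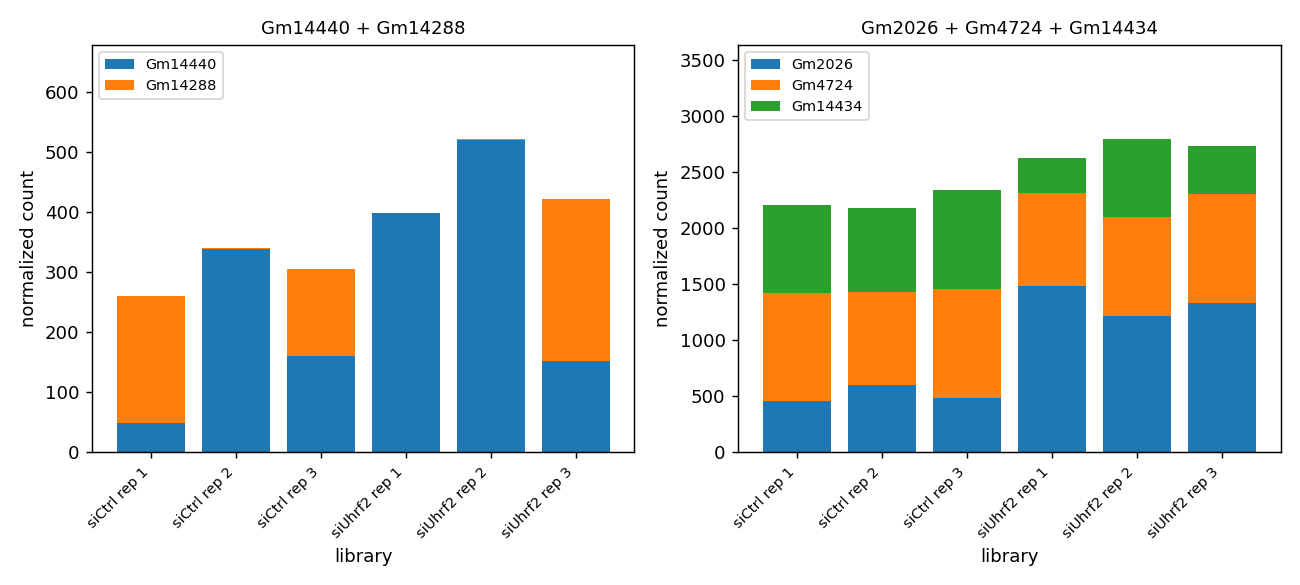
Stacked bars give the normalized count per library of Gm14440 and Gm14288 (left) and of Gm2026, Gm4724 and Gm14434 (right). On the left the split between the genes changes from library to library while the total stays between 259.6 and 340.2 in siCtrl and between 399 and 523 in siUhrf2, and on the right the Gm2026 segment is wider and the Gm14434 segment narrower in siUhrf2.

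Members were also joined into 1 entry wherever at least 80% of the 31-mers of one were found in another, and their values were summed before the fit. Links in either direction were chained, so an entry can hold members that share much less with one another. This put 32 of the 46 genes into 11 joined entries, of which 10, with 30 genes, reached 1 FPKM, and 1, Gm11009 with Gm14408, did not. At that level there were 20 entries, joined or single, of which 16 rose and 0 fell (limma, adjusted over all entries), beside 29.9% of all entries higher. The largest joined entry held 9 genes, Gm4631, Gm4724, Gm11007, Gm2007, Gm2026, Gm14434, Gm14308, Gm14305 and Gm14410, and went from 7341 ± 314 to 13926 ± 79.4 normalized counts (SD, n = 3; 1.90-fold, limma adjusted p = 4.73e-09). Most of that difference came from Gm4631, which alone went from 2887 ± 169 to 7993 ± 31.2 (SD, n = 3). Of the 31-mers of Gm4631, 48.9% are found in no other gene and at most 37.9% in any single other member. Gm14440 with Gm14288 rose 1.48-fold (limma adjusted p = 0.00193), and the 4 genes Zfp966, Zfp967, Zfp968 and Zfp969 together rose 1.43-fold (limma adjusted p = 4.71e-07). Gm14444 with Gm14406 had 95.4 ± 13.5 against 87.2 ± 7.72 and did not pass.

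Genes of the partners of KRAB zinc finger proteins had log2 differences of at most 0.35 among those that rose. Trim28, the corepressor itself, averaged 26685 ± 310 normalized counts in siCtrl against 26337 ± 792 after knock-down (SD, n = 3; limma adjusted p = 0.64), and Setdb1, the H3K9 methyltransferase, 3204 ± 96.6 and 3140 ± 88.3 (limma adjusted p = 0.53). In a list of 26 corepressor and linked heterochromatin genes 25 were tested, of which 10 (40.0%) rose, 2 (8.0%) fell and 13 missed the threshold, beside 29.9% higher and 31.1% lower over all genes, at a median log2 difference of 0.05. The 2 that fell were Mta2, a subunit of the NuRD remodelling complex, and Smarcad1, a chromatin remodeller, by log2 differences of -0.13 and -0.10. The smallest adjusted p belonged to Hdac2, a histone deacetylase, which rose by 0.35 on the log2 scale (SE 0.032), Mta1, another NuRD subunit, by 0.26, and Sumo2, a ubiquitin-like modifier, by 0.25. They were followed by the heterochromatin proteins Cbx1 and Cbx3 at 0.20 and 0.18. A list of 5 genes of the HUSH silencing complex and its partners, which also holds Setdb1, had 1 that rose, 1 that fell and 3 that missed the threshold, too few to set against the 29.9% and 31.1% of all genes. Pphln1 rose by 0.22 and Fam208a, also named Tasor, fell, by a difference of -0.23 on the log2 scale.

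Other genes named Zfp, outside the interval, were divided. Of 287 with a mean of at least 1 FPKM, 66 (23.0%) rose, 81 (28.2%) fell and 140 missed the threshold, at a median log2 difference of -0.03. Over all genes 29.9% rose and 31.1% fell, and in the cluster 26 of 35 rose and 0 fell. The 4 with the largest change among called ones at 5 FPKM or more were Zfp808 and Zfp934 on chromosome 13, Zfp961 on chromosome 8 and Zfp946 on chromosome 17, and all 4 rose, by log2 differences of 1.26, 0.88, 0.66 and 0.64. The difference between the cluster and these genes was not tested, since the interval was chosen with results of this comparison known.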

How the data were processed

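Per the labels, total RNA of 6 AML12 samples was made into libraries by an Illumina protocol. Per the file headers, the deposited table has for every gene and library a normalized count (a signal of 0 or more) and its FPKM, both made by the authors. Kallisto 0.44.0, edgeR and GRCm38.p6 stand, without roles, in the submitters' processing notes. How values were scaled or filtered, the annotation and the use of strand are not stated. Groups and replicate numbers come from the sample titles, and 0 columns were left unused. Divided by the estimated worth of 1 read, 63.0% to 64.9% of non-zero values per library were whole within 0.01, so they were not treated as counts and no count test was run. Precision is lower for members with few reads.

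Genes were matched by Ensembl identifier to GENCODE M21. Differences were fitted on log2(normalized count + 1) in limma 3.58.1 under R 4.3.3, with trended, robust variances (statmod 1.5.0), for the 11343 genes whose mean over the libraries reached 1 FPKM, adjusted by Benjamini-Hochberg over all of them and called under 0.05. The deposited normalized counts were turned into log2 values here, and folds are 2 to the power of the log2 difference, which understates changes of low genes. Tested on simulated data of the siUhrf2 against siCtrl comparison (11343 genes), it found 37 of the 50 genes set to 1.25-fold, 43 of those set to 1.5-fold, 49 of those set to 2-fold and all 50 set to 3-fold, and 7 of its 186 calls were false. These were the only genes changed, and all were set to rise, whereas 61.0% of genes were called, in both directions, in the measured data. The simulated shares therefore need not hold there. No test was made of the sum or of any list.

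The members and lists were chosen with earlier results of these data known. Named genes are all members at 1 FPKM or more, the 3 next below, the nearest 2 outside each end, Uhrf2, up to 6 corepressor and 2 HUSH genes by adjusted p, and the 4 other Zfp genes with the largest change. Trim28, Setdb1 and the 2 corepressor genes that fell were named after their values were seen. A corepressor gene that the rule names is not reported here.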

Additional observations from a re-analysis of the deposited data

How the results depend on the processing

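The number of members called higher, 26 of 35, was 25 to 27 under 3 other scalings of the libraries, 2 other pseudocounts, log2(FPKM + 1), no filter, an adjusted p under 0.01, no robust variances and protein-coding members, and 25 to 26 when 1 library was left out. With a mean of at least 5 FPKM it was 19 of 22. It was 16 of 20 after joining members by shared 31-mers, a step chosen after the data were seen. It was 1 of 2 among members with at least 50% of 31-mers in no other gene. Both leave fewer entries by construction. The number called lower was 0, but 1 without a filter (Gm14408, under 1 FPKM), 1 without robust variances and 0 to 1 when 1 library was left out. The log2 ratio of the sum, 0.76, was 0.77 to 0.79 under other scalings and with members of at least 1 FPKM, 0.66 with FPKM, which weights short genes more, 0.59 without Gm4631, and 0.74 to 0.79 when 1 library was left out. Of 26 called members, 25 kept their direction and call under every alternative run that tested them, and Zfp968 kept its direction only: it also lost its call under quantile normalization (adjusted p = 0.054), log2(FPKM + 1) (0.0734) and without robust variances (0.0517). Atp5e lost its call under 3 other scalings (0.0781 to 0.138), without a filter (0.0896) and without robust variances (0.0522). Of the uncalled members, Gm4724 changed sign without siUhrf2 replicate 1 and ranged from -0.118 to 0.006, and Zfp972 without siCtrl replicate 2, from -0.064 to 0.334. Gm11008 passed under 2 other scalings (0.0494 and 0.0284) and with log2(FPKM + 1) (0.0299). The corepressor genes that fell numbered 1 in place of 2 under the median-of-ratios, upper quartile and quantile scalings and without a filter, and 1 to 3 when 1 library was left out. The other Zfp genes that rose numbered 43 of 171 at 5 FPKM, where fewer genes were tested, and 56 to 61 when 1 library was left out. For these changes of call the cause was not tested.

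Libraries with the same replicate number had correlated deviations of 0.176, 0.236 and 0.0657 for replicates 1, 2 and 3, and each correlated best with its own number in all 3 pairs, a hint from the data only. With the replicate number as a block, 26 members were higher and 0 lower, the log2 ratio of the sum was 0.765, that of Uhrf2 was -1.66, the corepressor genes that fell numbered 3 and the other Zfp genes 67 higher and 84 lower. Over all genes 7248 were called in place of 6919, and no called member lost its call.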
